A study of Homo sapiens with 12 samples.

Results

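The genes described here are 42 genes of the amino acid response: the transcription factor ATF4, targets of it, amino acid carriers, enzymes that make amino acids, and cytosolic tRNA synthetases. They were chosen by name, with earlier results of these data known. Each was read from the probe set that carries its symbol alone and has the highest mean log2 signal over the 12 arrays. Of the 42 genes, 40 have such a probe set, out of 19775 genes on the array, and 38 passed the filter on low signal, out of 13959 genes tested. ALDH1L2, an enzyme of mitochondrial folate metabolism, and SLC6A9, a glycine carrier, were measured below the filter. MARS1, the methionine tRNA synthetase, had only 3 probe sets that it shares with another symbol, and GPT2, an alanine transaminase, was not analysed here.

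RNA of U937, a human cell line with monocytic features, was measured on 12 Affymetrix oligonucleotide arrays. Plasmids were brought in by electroporation: pEGFP (GFP alone), pEGFP-PRWT (GFP with wild-type PML-RARA) or pEGFP-PR2VR (GFP with the PR2VR form). After 6 h or 9 h the cells positive for GFP were sorted for RNA. PML-RARA is the fusion protein of acute promyelocytic leukaemia. The title of the series concerns protease-resistant PML-RARA, and the labels do not say what distinguishes PR2VR from the wild type (1 label field calls both plasmids wild type). Each of the 6 groups holds 2 arrays, numbered 1 and 2, so each construct has 4 arrays. The fusion was carried by a transfected plasmid in 1 established line, and the titles count hours after infection for the fusions and after transfection for GFP. Nothing in the labels says whether the numbered arrays came from separate electroporations, so the spread behind each p-value is that between these arrays and may be technical.

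When eIF2alpha is phosphorylated by a stress kinase, general translation slows while translation of ATF4 increases. ATF4 then pairs with C/EBP proteins at composite promoter elements and induces genes for amino acid synthesis, amino acid uptake and tRNA charging, together with feedback factors such as DDIT3 (CHOP) and TRIB3. Much of the control of ATF4 acts on its translation, so an mRNA level does not measure the protein.

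RefSeq promoter windows of GRCh38.p14, from 250 bases before to 50 after a start site, were found for 33 of the 42 genes. The C/EBP-ATF response element, searched as TGATGNAAN on both strands, stood in a window of 14 of the 33 genes (42.4%), against 4.45% of all 27305 genes with a window. A gene counts here if any of its windows matches. Per window the share was 26.4% of the 53 windows of these genes, against 3.61% of all 35116. The windows matched most often among tRNA synthetases, with 7 genes: AARS1, CARS1, GARS1, IARS1, MARS1, NARS1 and TARS1. The carriers SLC1A4, SLC1A5, SLC3A2 and SLC7A1, the regulators CHAC1 and JDP2, and the enzyme ASNS also held a match. The exact form TGATGCAAT occurred only in TARS1 of these genes and in 0.293% of all genes. The cAMP response element TGACGTCA occurred in 0 of the 33, against 2.25% of all genes. The following stretches are from genes that are given on every array below. They run 5′ to 3′ along the gene's own strand, the match is in capitals, and positions count from the start site of the window, whose first base is 1. For GARS1 and SLC1A4 this is start site 2 of the gene, and for the others start site 1.
AARS1, chr16:70289676-70289704, minus strand, capitals from -188 to -180: ttttctcgcaGTTGCATCAgccaagttag
ASNS, chr7:97872458-97872486, minus strand, capitals from -68 to -60: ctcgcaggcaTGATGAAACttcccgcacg
GARS1, chr7:30594834-30594862, plus strand, capitals from -34 to -26: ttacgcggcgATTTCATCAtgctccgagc
NARS1, chr18:57621804-57621832, minus strand, capitals from 15 to 23: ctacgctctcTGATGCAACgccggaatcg
SLC1A4, chr2:64989381-64989409, plus strand, capitals from -8 to 1: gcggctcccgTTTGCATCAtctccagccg
SLC7A1, chr13:29595663-29595691, minus strand, capitals from 8 to 16: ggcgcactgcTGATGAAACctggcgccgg
A match in these letters is a description of the window, and binding of a factor there was not measured.

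Array values are MAS5 signals on a linear scale, and differences are of log2(signal + 62.5). The trimmed mean was 1500.2 for each array, and the median signal ranged from 238.6 to 436. Arrays with the same number at the same time varied together and are called a set below (4 sets, each with 1 array per construct). The fit that takes the set as a block is called the paired fit, and the fit without it the unpaired fit. The 3 arrays of 9 h number 2 stood apart by a lower ratio of 3′ to 5′ signal of GAPDH (2.21 to 2.75, elsewhere 3.82 to 12.9). The actin ratio was also lower on them (7.79 to 10.7, elsewhere 12.5 to 58.2). A lower ratio means less loss of 5′ signal, so by this sign of RNA or labelling quality the other arrays were the poorer ones. The highest actin ratios were those of PR2VR at 9 h number 1 (58.2) and 6 h number 2 (56.9). RARA, which the plasmids carry, gave signals of 48.2 to 309 on the GFP arrays and 9281 to 58985.0 on the fusion arrays. Of the myeloid markers with a probe set, 11 of 13 passed the filter, among them LYZ, ITGAM and CSF1R, but CD14 and SPI1 did not. Their summed signal was 14880.2 to 44053 with GFP, 27132 to 61691 with PRWT and 23706 to 50152 with PR2VR. Against GFP 5 of these 11 were higher and 6 lower with the fusions (median -0.01): CD36 rose (1.33 ± 0.18, SE; adjusted p = 0.017, limma, paired fit), while CSF1R was lower in 8 of 8 pairs (-0.48 ± 0.22; adjusted p = 0.60). Of other cell types, 2 of 7 T-cell markers (CD3D and CD2), 4 of 5 B-cell markers (MS4A1, CD79A, CD79B and PAX5), 1 of 5 erythroid and megakaryocyte markers (HBB) and 4 of 10 markers of epithelium and fibroblasts passed. The summed B-cell markers were 3705 to 17773 with GFP, 4358 to 11565 with PRWT and 5124.0 to 7002 with PR2VR, and the part of any marker in the results below was not tested. In RNA from a pool of sorted cells, fewer cells expressing a gene and less RNA per cell cannot be told apart.

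The first question was which of these genes differ between cells with a PML-RARA fusion and cells with GFP. Most had higher signals with the fusions: averaged over both fusions and both times, 33 of the 38 lay above GFP, with a median difference of 0.31 (log2), against a median of -0.02 over all genes tested, of which 47.6% lay above GFP. Because the genes were chosen with earlier results of these data known, shares of all genes here are a description and not a test of the list. Without the GFP array of 9 h number 2 the median was 0.19, with 29 above. The largest positive differences were those of CTH, SLC7A11 and TRIB3, each more than 1 log2 unit, and the largest negative one was that of ATF5. Single genes seldom passed the test across all genes. In limma's unpaired fit 0 of the 38 passed at an adjusted p under 0.05, where 0.00716% of all genes did (1 gene, RARA), and 5 had an unadjusted p under 0.05 (ATF4, CTH, SLC3A2, SLC7A11 and TRIB3), against 3.14% of all genes. In the paired fit 1 passed, ATF5, which fell, where 0.129% of all genes rose and 0.186% fell. At an unadjusted p under 0.05 in the paired fit, 14 of the 38 were higher and 1 lower, against 4.47% and 3.93% of all genes. In all 8 pairs of a fusion array with the GFP array of its set, 6 genes were higher (ATF4, TRIB3, ASNS, SLC7A11, SLC7A5 and NARS1), against 2.74% of all genes, and ATF5 was lower, against 2.76%. All 8 fusion arrays lay above all 4 GFP arrays for TRIB3 and SLC7A11, where 0.229% of all genes had this pattern. The reverse pattern was seen in 0 of the 38 and in 0.251% of all genes.

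**Figure D1:**
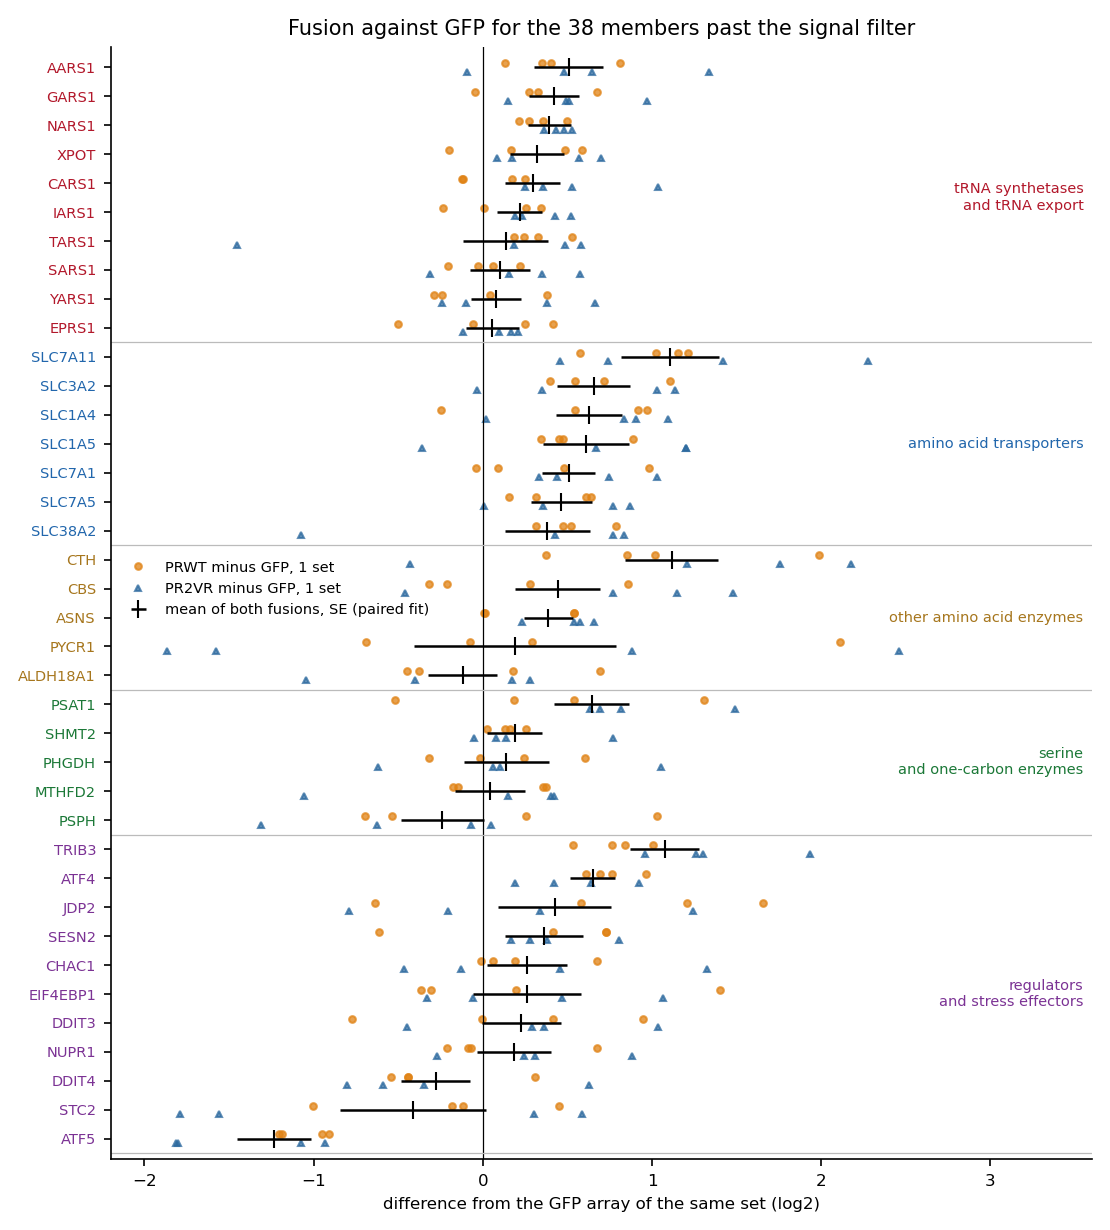
Difference from the GFP array of the same set (log2, x axis) for the 38 genes past the filter, grouped by role. Circles are PRWT and triangles PR2VR, 1 point per set (4 each), and black ticks with bars are the mean of both fusions ± SE of the paired fit; the transporters all lie right of 0 in their mean, and ATF5 lies furthest left at -1.23.

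The array signals follow in the order 6 h number 1, 6 h number 2, 9 h number 1 and 9 h number 2 within each construct. The ATF4 signal was 48719.8, 59935, 30068 and 26222 on the GFP arrays, 82675, 117002, 45846 and 42349 on the PRWT arrays and 65342, 68479.6, 46863 and 49805 on the PR2VR arrays. ATF4 was higher with either fusion than with GFP in every set, and at each time every fusion array lay above both GFP arrays, while the constructs overlapped when 6 h and 9 h were joined. The mean difference was 0.65 ± 0.13 (SE, paired fit; adjusted p = 0.090, limma) and 0.65 ± 0.20 unpaired (adjusted p = 0.95).

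ATF5, a relative of ATF4 that also responds to eIF2alpha phosphorylation, went the other way. Its signal was 2664.5, 16049, 4468 and 13165 on the GFP arrays, 1133, 8530.2, 1903 and 6795 on the PRWT arrays and 1367, 4529, 2088 and 3737 on the PR2VR arrays. Each fusion array lay below the GFP array of its set, but the sets differed so widely that the constructs overlapped. ATF5 fell by 1.23 (SE 0.22; adjusted p = 0.048, limma, paired fit), whereas in limma's unpaired fit the SE was 0.62 and the adjusted p = 1.0, and with the set as a random effect the adjusted p = 0.28. Its other bright probe set was lower by a similar amount (-1.29 ± 0.22, paired fit), with signals of 3225.0 to 6599 on the GFP arrays, 775 to 4410.5 with PRWT and 889 to 3195 with PR2VR. Its 2 dim probe sets gave -0.16 ± 0.33 and -0.43 ± 0.33. The call was kept when either PR2VR array of 6 h was left out, and was lost when any of the other 10 was left out, with differences of -1.36 to -1.11 over the 12 fits.

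TRIB3, a pseudokinase that ATF4 and DDIT3 induce and that restrains ATF4, separated the fusion arrays from the GFP arrays. The TRIB3 signal was 5823, 5670.2, 5644.5 and 3647 on the GFP arrays, 8452, 11440.4, 10167 and 6232.5 on the PRWT arrays and 22426, 11072, 14018.5 and 8828 on the PR2VR arrays. The highest GFP signal, 5823, lay below the lowest fusion signal, 6233. The difference for both fusions was 1.07 ± 0.20 (adjusted p = 0.062, limma, paired fit; 0.73 unpaired). A dim second probe set (signals of 22.1 to 609.5 with PR2VR) gave -0.03 ± 0.48.

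DDIT3, the stress factor CHOP, is a gene that ATF4 induces. The DDIT3 signal was 988, 1198, 1821 and 878 on the GFP arrays, 1335, 2366, 1041 and 873 on the PRWT arrays and 1221, 1557, 1315.5 and 1868 on the PR2VR arrays. The constructs overlapped, and 5 of 8 pairs were higher with the fusion. The difference was 0.23 ± 0.23 (paired fit; adjusted p = 0.87, limma).

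The other regulators lay on both sides of 0. SESN2, an inhibitor of mTORC1 that responds to leucine, differed by 0.36 ± 0.23, and its second probe set by 0.80 ± 0.20. JDP2, a bZIP factor, differed by 0.42 ± 0.33, and CHAC1, which degrades glutathione, by 0.26 ± 0.24. DDIT4, another inhibitor of mTORC1, differed by -0.28 ± 0.20, and the secreted glycoprotein STC2 by -0.41 ± 0.43. EIF4EBP1, a repressor of cap-dependent translation, and the stress protein NUPR1 were higher in 4 of 8 pairs each. In this class of 11 the median was 0.26, and 8 lay above GFP. The median was 0.13 without the PRWT array of 6 h number 2 and 0.17 without the PR2VR array of 9 h number 2.

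**Figure D2:**
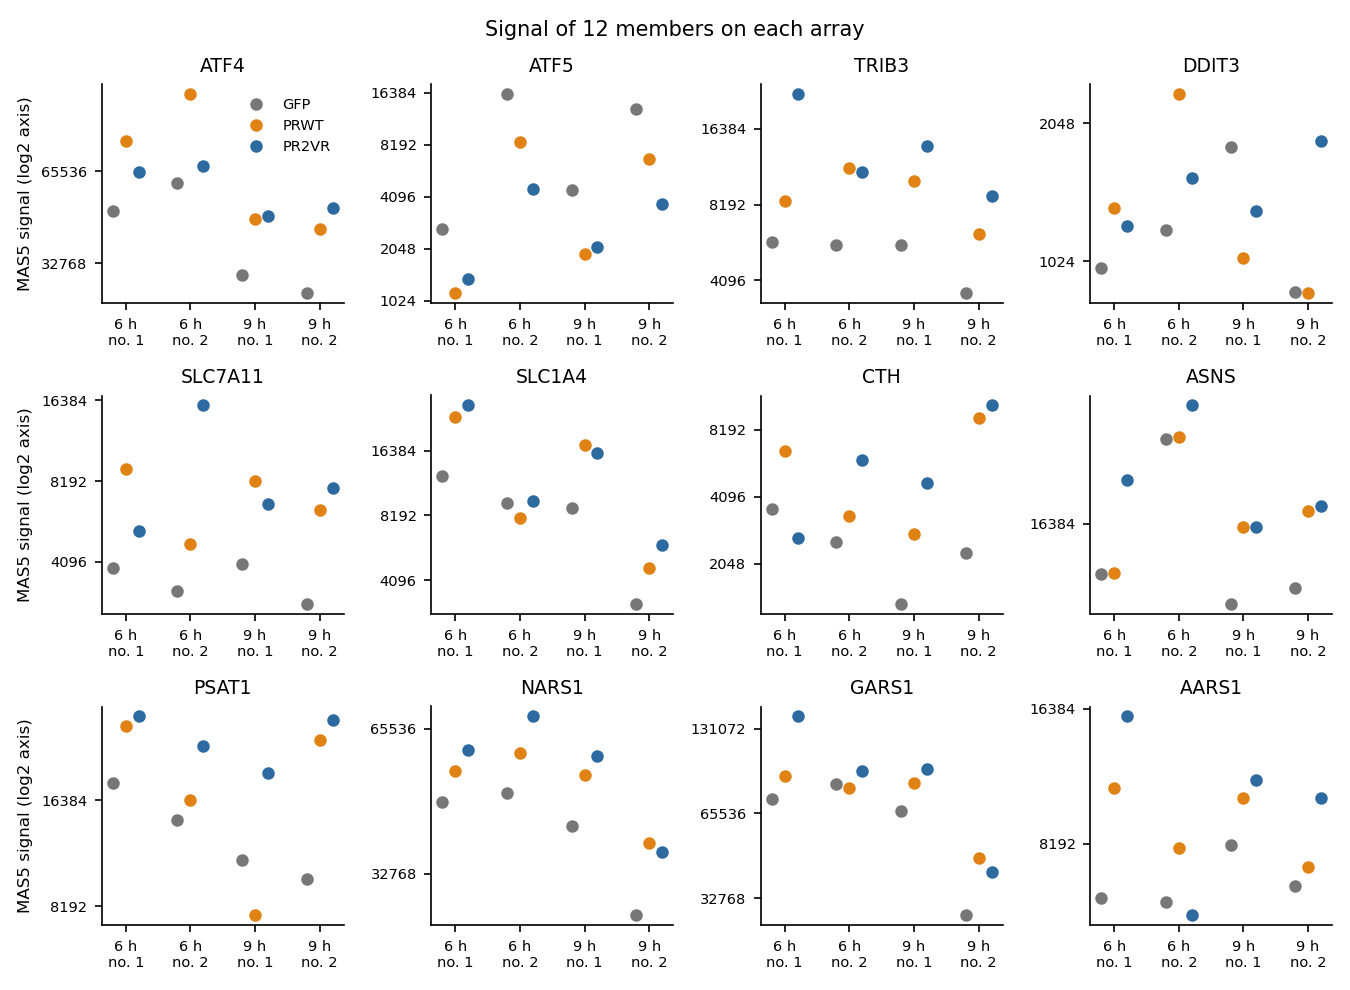
MAS5 signal (log2 axis, a separate range in each panel) of 12 genes on the 12 arrays, by set (x axis) and construct (colour). In every set GFP is the lowest of the 3 arrays for ATF4, TRIB3, SLC7A11, NARS1 and ASNS (by little against PRWT at 6 h) and the highest for ATF5.

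The amino acid transporters formed the class with the largest median, 0.61, and all 7 past the filter lay above GFP. At an unadjusted p under 0.05 in the paired fit 6 of the 7 were higher, against 4.47% of all genes. After adjustment 0 passed, where 0.129% of all genes rose. The 7 genes share their arrays, so the count is a description. SLC7A11, the light chain of the cystine-glutamate exchanger, which brings in cystine for glutathione, separated the constructs. Its signal was 3883, 3188, 4013 and 2844 on the GFP arrays, 9095, 4772, 8211.5 and 6399 on the PRWT arrays and 5343, 15694, 6741 and 7698 on the PR2VR arrays. The highest GFP value was 4013 and the lowest fusion value 4772, and the PR2VR array of 6 h number 2 stood highest. The difference was 1.11 ± 0.29 (adjusted p = 0.21, limma, paired fit). Its second probe set also showed no overlap, with 773 to 1310 (GFP), 1385.5 to 2255 (PRWT) and 1848 to 4641 (PR2VR), and differed by 0.98 ± 0.22. Another probe set of the gene differed by 0.51 ± 0.28.

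SLC1A4 carries alanine, serine and cysteine. The SLC1A4 signal was 12428, 9409, 8883 and 3173 on the GFP arrays, 23488.5, 7932, 17436 and 4659 on the PRWT arrays and 26584.5, 9549, 15917 and 6003 on the PR2VR arrays. Signals differed more between sets than between constructs, and 7 of 8 pairs were higher with the fusion (0.63 ± 0.20). SLC7A1, the cationic carrier of arginine and lysine, was also higher in 7 of 8 pairs. Its signal was 20780.0, 14112, 14276 and 6122 on the GFP arrays, 22136, 13707, 19934 and 12169.7 on the PRWT arrays and 34895, 19133, 18009 and 12566 on the PR2VR arrays. The exception was PRWT at 6 h number 2, just below its GFP array, and the difference was 0.51 ± 0.16. SLC3A2, the heavy chain that SLC7A11 and SLC7A5 need at the membrane, differed by 0.66 ± 0.22. SLC7A5, which takes up leucine and other large neutral amino acids, differed by 0.46 ± 0.18 and was higher in 8 of 8 pairs, although its arrays overlapped. SLC1A5 and SLC38A2, both carriers of glutamine, differed by 0.61 ± 0.26 and 0.38 ± 0.25. For SLC38A2 the PR2VR array of 6 h number 1 gave 25543, the lowest of the fusion arrays and the only one below its GFP array. Leaving out this opposing array gave a difference of 0.63, which follows from the omission and is not taken as a result.

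Among the serine and one-carbon enzymes the differences were smaller, with a median of 0.14 over 5 genes (0.047 to 0.23 when 1 array was left out, lowest without the GFP array of 9 h number 2) and 0 that passed. PSAT1 makes phosphoserine in the serine pathway. The PSAT1 signal was 18299, 14429, 11076.5 and 9787 on the GFP arrays, 26568, 16374, 7724 and 24346 on the PRWT arrays and 28371, 23313, 19552 and 27630.3 on the PR2VR arrays. The 4 PR2VR arrays lay above the 4 GFP arrays, while the PRWT array of 9 h number 1 was the lowest of all 12. The difference was 0.64 ± 0.22 for both fusions. PSPH, which releases serine in the last step, lay on the other side of 0. Its signal was 2275, 2812, 2614 and 4216 on the GFP arrays, 1546.5, 5803, 1587 and 5044 on the PRWT arrays and 880.5, 2673, 1669 and 4364 on the PR2VR arrays. Its PR2VR and PRWT arrays spread on both sides of GFP, and the difference was -0.24 ± 0.24.

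SHMT2 turns serine into glycine in mitochondria. The SHMT2 signal was 23172, 35681.5, 28885 and 19536 on the GFP arrays, 25356, 42650.0, 32310.0 and 19834 on the PRWT arrays and 39458, 34408, 30511 and 21492 on the PR2VR arrays. It was higher in 7 of 8 pairs by small amounts, 0.19 ± 0.16 in the mean. PHGDH, which opens the serine pathway, differed by 0.14 ± 0.25, and MTHFD2, the next mitochondrial folate enzyme, by 0.04 ± 0.21.

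Of the other enzymes, CTH and ASNS lay above GFP on most arrays. CTH, cystathionine gamma-lyase, makes cysteine from cystathionine. The CTH signal was 3628, 2570.2, 1352 and 2289 on the GFP arrays, 6588, 3347, 2796 and 9256 on the PRWT arrays and 2679, 6005, 4706 and 10539.8 on the PR2VR arrays. GFP was lowest in 3 of the 4 sets, and in the set 6 h number 1 the PR2VR array was lowest. The difference was 1.12 ± 0.28 (adjusted p = 0.17, limma, paired fit), and the gene's second probe set gave 0.87 ± 0.22. ASNS, asparagine synthetase, is the textbook target whose promoter stretch is printed above. Its signal was 12823.5, 24709.8, 11098 and 11969 on the GFP arrays, 12899, 24907, 16137 and 17402 on the PRWT arrays and 20274, 29052, 16122.5 and 17870.2 on the PR2VR arrays. At 6 h the PRWT arrays were level with GFP, and at 9 h both fusions exceeded both GFP arrays. The mean difference over both times was 0.39 ± 0.15. CBS, which forms cystathionine, overlapped widely. Its signal was 1278, 1898, 687 and 2542.5 on the GFP arrays, 1566, 1509.5, 1294 and 2187 on the PRWT arrays and 2909.8, 1364.5, 2025 and 4371 on the PR2VR arrays. Of its 8 pairs, 5 were higher (0.44 ± 0.25). ALDH18A1, which starts proline synthesis, differed by -0.12 ± 0.21, and PYCR1, which completes it, was dim and varied most (0.19 ± 0.60).

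The 9 synthetases and the tRNA exporter XPOT all had a mean above GFP, by small amounts, with a median of 0.26. The median was 0.090 without the GFP array of 9 h number 2 and 0.39 with the mean of all probe sets of a gene. None passed (limma), where in the paired fit 0.129% of all genes rose and 0.186% fell. At an unadjusted p under 0.05 in the paired fit 3 were higher, against 4.47% of all genes. NARS1 charges the asparagine tRNA. The NARS1 signal was 46100.5, 48307, 41198.5 and 26892 on the GFP arrays, 53525, 58391, 52624 and 37969 on the PRWT arrays and 59232, 69505, 57585 and 36278 on the PR2VR arrays. Each fusion array exceeded its GFP array, by 0.39 ± 0.13 in the mean. GARS1, the glycine enzyme, was among the brighter probe sets. Its signal was 73889.6, 83479, 67150.2 and 28612 on the GFP arrays, 89226.5, 80751, 84175 and 45702 on the PRWT arrays and 144676, 92517, 94378 and 40819 on the PR2VR arrays. Only PRWT at 6 h number 2 was below its GFP array (0.42 ± 0.15). AARS1, the alanine enzyme, gave the largest difference of the class, 0.51 ± 0.20. Its signal was 6208.5, 6068, 8131 and 6614 on the GFP arrays, 10935, 8032, 10373 and 7262 on the PRWT arrays and 15763, 5685, 11351.5 and 10361 on the PR2VR arrays. Only PR2VR at 6 h number 2 lay below its GFP array. XPOT, CARS1 and IARS1 differed by 0.32 ± 0.16, 0.29 ± 0.16 and 0.22 ± 0.13. TARS1, SARS1, YARS1 and EPRS1 differed by 0.13 ± 0.25, 0.10 ± 0.18, 0.08 ± 0.16 and 0.06 ± 0.16. The PR2VR array of 6 h number 1 held the lowest TARS1 signal, 5210.0, where the next 11 ranged from 12392 to 21316. It also gave the highest signals of the series for CARS1, GARS1, AARS1, SARS1, YARS1, TRIB3 and CHAC1. The same was true of SLC7A1, SLC1A4, SLC7A5, SLC3A2, PSAT1 and PHGDH. This array was also the lowest for PSPH, MTHFD2, JDP2, NUPR1 and PYCR1. Without it the median of the transporters was 0.45, and all 7 stayed above GFP. For YARS1 a second, dimmer probe set differed by 0.72 ± 0.22, with 598 to 1299 on the GFP arrays, 1115 to 1759 with PRWT and 1809 to 2278.0 with PR2VR.

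Other probe sets of these genes mostly ran the same way. Of 33 further probe sets past the filter, over 21 of the genes, 29 differed in the direction of the chosen probe set and 4 in the opposite one (of TRIB3, EPRS1, SLC1A4 and MTHFD2). Some gave larger values than the chosen one, as did probe sets of TARS1 (0.94 ± 0.34), CARS1 (0.84 ± 0.38) and SLC38A2 (0.73 ± 0.17). Those of TARS1 and CARS1 were dim, with 25.9 to 150 and 104 to 629 on the GFP arrays. Others gave smaller values, as did those of CTH and SLC7A11, and the differences between probe sets were not tested. The 13 tested genes with the C/EBP-ATF element in their promoter window all lay above GFP, with a median of 0.42. The 18 with a window and no match had a median of 0.27, with 14 above, and they include ATF5 at the low end and CTH at the high end. Genes without a window, SLC7A11 among them, are in neither group. Most of the matched genes were transporters or of the tRNA class, where every tested gene lay above GFP with or without a match. A link between the element and the difference was not tested.

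Genes of the same pathway that are not among the 42 were read from lists of their names, also chosen with earlier results known. The remaining cytosolic synthetases and their scaffold proteins had a median of -0.06, with 4 of 9 above GFP. WARS1, the tryptophan enzyme, which interferon induces, fell by 0.95 (SE 0.15; adjusted p = 0.032, limma, paired fit). Its signal was 36691, 84735.5, 57381 and 46405 on the GFP arrays, 17156, 40394, 30433 and 27471 on the PRWT arrays and 13918, 41999.5, 41741 and 24469 on the PR2VR arrays. Each fusion array lay below its GFP array, although the constructs overlapped. HARS1, the histidine enzyme, differed by -0.27 ± 0.18. Mitochondrial synthetases had a median of -0.04 (6 of 15 above GFP), with SARS2 at -0.49 ± 0.33 and RARS2 at 0.28 ± 0.22, and 0 passed.

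Further amino acid transporters had a median of -0.04, with 6 of 13 above GFP and 0 passing. SLC38A1, a glutamine carrier, differed by 0.66 ± 0.15 and SLC6A6, the taurine carrier, by -0.80 ± 0.25. Further enzymes of serine, folate and amino acid metabolism had a median of -0.09 (7 of 21 above), with GCLC, which makes the precursor of glutathione, at -0.66 ± 0.18 and the arginase ARG2 at -0.65 ± 0.25. In the list of eIF2alpha kinases, their phosphatase and partner factors the median was 0.09 (11 of 20 above). That list also held VLDLR, GDF15, KLHL24, SESN1 and SESN3. CEBPB, a C/EBP factor that pairs with ATF4, fell by 1.07 (SE 0.17; adjusted p = 0.034, limma, paired fit). Its signal was 25868, 34105, 35028 and 19183.5 on the GFP arrays, 7437, 20393, 17014 and 8449.5 on the PRWT arrays and 12336.5, 18930.4, 17174 and 10358 on the PR2VR arrays. Again every fusion array lay below the GFP array of its set. SESN3, a relative of SESN2, differed by 0.68 ± 0.29. Chaperones of the endoplasmic reticulum, which the other arms of the unfolded protein response induce, had a median of -0.19, with 4 of 16 above GFP and 0 passing. PDIA4 and CRELD2 of that list both differed by -0.44, with SE of 0.17 and 0.23. When 1 array was left out of the paired fit, CEBPB was kept in 3 and WARS1 in 2 of 12 fits, with differences of -1.23 to -0.91 and -1.02 to -0.88.

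**Figure D3:**
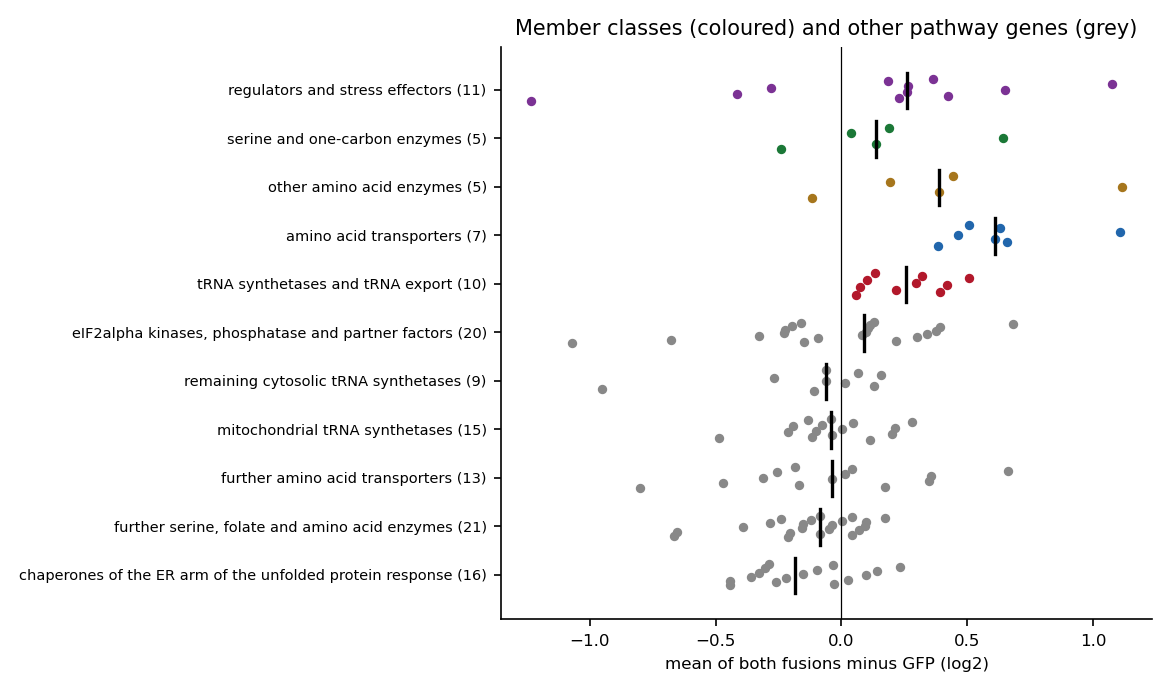
Mean of both fusions minus GFP (log2, x axis) for each gene past the filter, by list (number of genes in brackets), with the 5 classes described here in colour and other pathway lists in grey. Black bars are list medians, from 0.61 for the amino acid transporters to -0.19 for the chaperones.

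The next comparison took each fusion form on its own. With PRWT, 34 of the 38 lay above GFP (median 0.27), and with PR2VR 30 did (median 0.33); the comparisons share the GFP arrays. With PRWT 0 passed in limma's paired fit, where 0.00716% of all genes did, and 8 had an unadjusted p under 0.05, against 5.44% of all genes. ATF4 differed by 0.76 ± 0.15, TRIB3 by 0.79 ± 0.23 and CTH by 1.06 ± 0.32. With PR2VR 1 passed: TRIB3 rose by 1.36 ± 0.23 (SE; adjusted p = 0.046, limma, paired fit), a fold of 2.57, where 0.15% of all genes rose, and 0 passed in the unpaired fit. The call was kept in 4 of 12 paired fits that left out 1 array, those without a 6 h array of either fusion, with differences of 1.06 to 1.67. At an unadjusted p under 0.05, 18 of the 38 were reached, against 11.1% of all genes. ATF5 differed by -1.40 ± 0.25 with PR2VR (adjusted p = 0.052) and by -1.06 ± 0.25 with PRWT (adjusted p = 0.34). ATF4 differed by 0.54 with PR2VR, SLC7A11 by 1.22 with PR2VR and 0.99 with PRWT, and PSAT1 by 0.91 with PR2VR and 0.38 with PRWT.

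Set directly against each other, PR2VR and PRWT differed by a median of 0.10 over the 38 genes, with 27 higher with PR2VR. The median was 0.041 without the PRWT array of 9 h number 2 and 0.16 without the PR2VR array of 6 h number 2, the lowest and highest of the fits that left out 1 array. In limma's paired fit 0 of the 38 passed, and 0% of all genes did. At an unadjusted p under 0.05 there were 2, CARS1 (0.50 ± 0.19) and TRIB3 (0.58 ± 0.23; adjusted p = 0.72 for both), against 6.86% of all genes. CARS1 is shown because of its low p in this comparison. With PR2VR it gave 76601, 56894, 55496 and 42354, above PRWT in every set (34272, 50172, 42959 and 34888). The share of all genes with this pattern was not counted, so it is a description of 1 picked gene. For 23 of the 38 genes the difference was smaller than its SE, which ranged from 0.15 to 0.69. The lack of calls does not show that the forms act alike.

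The number of calls changed when arrays were left out. Each such fit leaves a group with 1 array, and the fits share most of their arrays. The share of all genes that pass also changes with the omission, so passing in several of these fits is not taken as repeated support for a gene. Without the PR2VR array of 6 h number 1, 6 of the 38 passed in the paired fit of both fusions against GFP, where 1.78% of all genes did: ATF4, CTH, SLC7A11, SLC38A2 and TRIB3 rose and ATF5 fell. Without the PR2VR array of 6 h number 2 (the other arrays kept), 9 passed, against 2.58% of all genes: AARS1, ATF4, CTH, GARS1, SLC1A5, SLC3A2, SLC7A11 and TRIB3 rose and ATF5 fell. For PR2VR alone the counts were 5 without the first of these arrays (2.98% of all genes) and 12 without the second (5.29%). ATF4, ATF5, CTH, SLC7A11 and TRIB3 passed in both of these fits of the fusions, and leaving out any of the other 10 arrays left 0 of the 38. Without the 9 h number 2 arrays, 0 passed.

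Fusion and GFP were also compared at each time, on arrays that the times do not share. At 6 h 29 of 38 genes lay above GFP, with a median of 0.31, and at 9 h again 29, with a median of 0.31. The 9 h median was 0.47 without GFP number 1 of 9 h and 0.091 without GFP number 2. In limma's paired fit 0 passed at either time, where 0.00716% of all genes did at 6 h and 0.00716% at 9 h. At an unadjusted p under 0.05, 4 genes were reached at 6 h (5.63% of all genes) and 14 at 9 h (6.32%). Over the 38 genes the differences at the 2 times correlated at r = 0.61 (0.45 without ATF5), against r = 0.21 over all genes, a description across genes that share their arrays. At both times 24 of the 38 lay above GFP (63.2%, against 26.2% of all genes) and 4 below (10.5%, against 30.1%).

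TRIB3 differed by 1.11 ± 0.29 at 6 h and 1.04 ± 0.29 at 9 h, SLC7A11 by 1.13 ± 0.41 and 1.08 ± 0.41, and ATF5 by -1.21 ± 0.31 and -1.26 ± 0.31. CTH differed by 0.50 ± 0.39 at 6 h and 1.73 ± 0.39 at 9 h. As a signed value, fusion minus GFP was lower at 9 h than at 6 h for 10 of the 11 regulators (median change -0.39), 3 of them (ATF5, DDIT4 and STC2) by moving further below GFP. The median change of all genes tested was also below 0 (-0.02). Some of the regulators barely moved: ATF5 and TRIB3 changed by less than their SE, and STC2 went from -0.38 to -0.45. The difference was higher at 9 h for 6 of the 7 transporters (0.33) and for the 5 other enzymes (0.61), among which ALDH18A1 went from -0.42 to 0.19. DDIT3 went from 0.50 to -0.05 and CHAC1 from 0.61 to -0.09. By set, in the order above, the class medians were 0.38, 0.65, -0.20 and 0.06 for the regulators. They were 0.79, 0.20, 0.77 and 0.78 for the transporters and 0.21, 0.09, 0.54 and 0.56 for the other enzymes. For the transporters only the set 6 h number 2 was lower than those of 9 h. The change by class was not tested, and the genes of a class share their arrays. In the test of this change itself 0 of the 38 passed in limma's paired fit, 0% of all genes did, and 1 of the 38 (CTH) had an unadjusted p under 0.05, against 3.11% of all genes. In the unpaired fit there were 0, against 0.759%.

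**Figure D4:**
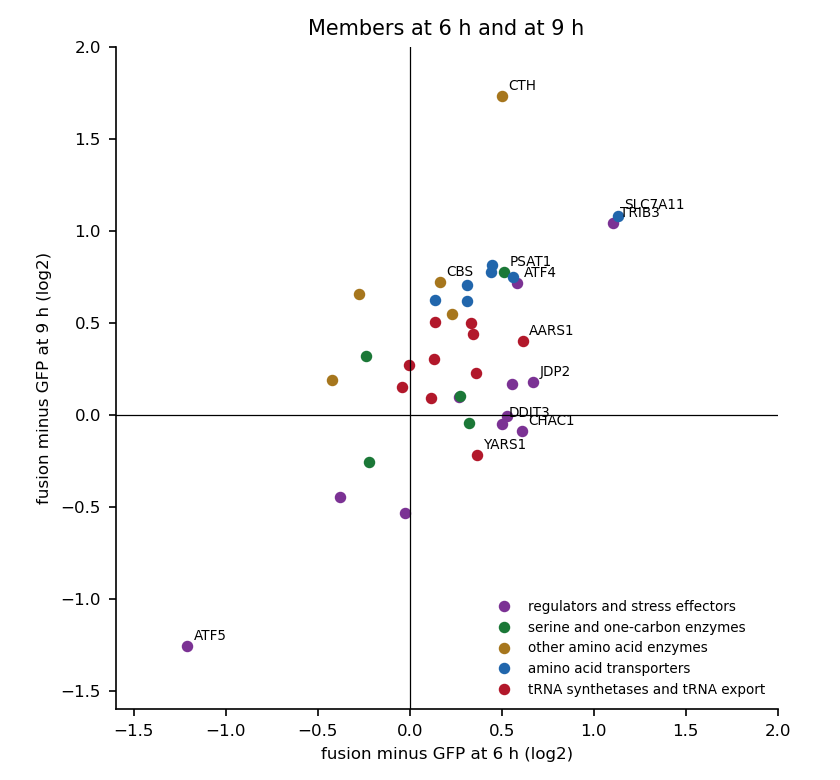
Mean of both fusions minus GFP (log2) at 6 h (x axis) and at 9 h (y axis) for the 38 genes, coloured by class, on equal scales. ATF5 lies at the lower left, SLC7A11 and TRIB3 lie near 1.1 on both axes, and CTH is highest at 9 h.

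The last comparison set 9 h against 6 h over all constructs, which pairs no arrays. The median difference of the 38 genes was -0.24 with 13 above 0, while the median of all genes was 0.13. The median of the 38 was -0.10 without the arrays of 9 h number 2, which stood apart in the GAPDH ratio, -0.13 without the GFP array among them alone, and -0.16 with the mean of all probe sets of a gene. In limma's unpaired fit 0 of the 38 passed, where 0.0788% of all genes did, and 3 had an unadjusted p under 0.05, against 15.1% of all genes. ATF4 differed by -0.86 ± 0.19 (adjusted p = 0.11), GARS1 by -0.73 ± 0.29 and SLC7A5 by -0.53 ± 0.23. ATF4 on the GFP arrays was 48719.8 and 59935 at 6 h and 30068 and 26222 at 9 h, and the 4 fusion arrays of 9 h ranged from 42349 to 49805, overlapping the lower of the 2 GFP arrays of 6 h. The median change of the 38 genes from 6 h to 9 h was -0.20 with GFP, -0.18 with PRWT and -0.17 with PR2VR.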

How the data were processed

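Affymetrix arrays were read for 12 samples of U937 cells, 2 in each of 6 groups, placed by their titles. The deposited intensity values are the authors' MAS5 signals on a linear scale, per the submitters' processing notes, which give no version. They had been scaled to a common trimmed mean and were not normalized further. Precision is limited by the number of arrays.

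Of 54675 probe sets, 62 are controls, 41091 have 1 gene symbol in the platform annotation, 1801 several and 11721 none given here. Entrez numbers of 41037 matched the RefSeq gene table and changed 0 symbols. Per gene the probe set with the highest mean of log2(signal + 62.5) was kept (62.5 is the 20th percentile of the signals), and genes whose mean reached the 40th percentile (log2 of 7.85) were tested. Differences on this scale understate changes of dim genes.

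All 12 arrays entered limma 3.58.1 (R 4.3.3) with 1 mean per group, a variance trend and Benjamini-Hochberg adjustment over 13959 genes, and genes passed under 0.05. Errors are standard errors. The code was tested on simulated data. Titles number the arrays: arrays of 1 number and time, each taken relative to its group mean, correlated at 0.36, 0.15 and 0.21 at 6 h and 0.60, 0.63 and 0.56 at 9 h, each over 0.1, so the numbers were taken as pairs, more weakly at 6 h. The planned paired fit with the set as a block has 4 residual degrees of freedom, against 6 without it. Values per array are given for members that passed in any comparison, the 3 per class with the lowest unadjusted p in the paired fit, ATF4, DDIT3 and ASNS. Those of CARS1 with PR2VR and PRWT stand outside this rule. Other pathway genes are named where they passed or were among 2 per list with the lowest p. The members and lists were chosen with earlier results of these data known. Alternatives changed the offset, filter, normalization, probe set rule, variance trend, block and arrays.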

Additional observations from a re-analysis of the deposited data

Results flagged for a closer look

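YARS1, the tyrosine tRNA synthetase, was higher with the fusions in all 4 pairs of a fusion with a GFP array at 6 h and lower in all 4 at 9 h. The fusion difference at 9 h minus that at 6 h was -0.58 (log2). This pattern of opposite directions was not itself tested; the separate test of that change in limma gave an adjusted p of 1.0 in both fits. A second, dimmer probe set of the gene differed by 0.72 ± 0.22 over both times.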

How the results depend on the processing

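Each result was recomputed with 1 choice changed at a time. The count of genes that passed for both fusions against GFP was 0 in the unpaired fit, 1 (ATF5) with the replicate block and 0 in the other 21 alternatives, the block as a random effect among them; in that paired fit it ranged from 0 to 9 when 1 array was left out, and was 0 without the arrays of 9 h number 2. For PR2VR against GFP the count was 1 with the replicate block and 1 with the block as a random effect, 0 to 12 when 1 array was left out of the paired fit, and 0 without the arrays of 9 h number 2. The block changed no other count of passing genes. In the paired fit ATF5 ranged from -1.36 to -1.11 when 1 array was left out and was -1.17 without 9 h number 2 (adjusted p from 0.0052 to 1.0 over these fits); TRIB3 with PR2VR ranged from 1.06 to 1.67 and was 1.37 (adjusted p from 0.00092 to 0.78). The median over the genes ranged from 0.19 to 0.40 for both fusions and from 0.18 to 0.31 for PRWT when 1 array was left out, with 0.23 after quantile normalization, 0.23 for the mean of all probe sets and 0.19 without 9 h number 2. It ranged from 0.21 to 0.37 at 6 h, 0.091 to 0.47 at 9 h, and 0.015 to 0.21 for the change between times, and 9 h against 6 h gave -0.10 without 9 h number 2. The yardstick for that last median, the spread of set medians within a time, was chosen after the values were seen. DDIT3 turned to -0.054 without 9 h number 2, and ranged from -0.023 to 0.48 when 1 array was left out; CBS ranged from -0.0065 to 0.89. Read alone, dim probe sets of TRIB3 and SLC1A4 gave -0.026 and -0.078, a check added after the data were seen. The causes were not tested. Among the 7 amino acid transporters, 0 fell below GFP on average in any alternative; in the other classes, at most 5 regulators, 2 serine enzymes, 2 other enzymes and 2 of the tRNA class did. With 2 arrays per group, small differences in single genes were not detectable.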
